A study of Mus musculus with 10 samples.

Results

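The activity-dependent immediate early genes examined here were Fos, Fosb, Junb, Egr1, Egr2, Arc, Npas4, Nr4a1, Nr4a3 and Homer1. They were represented by 18 of the 45037 probe sets apart from controls, namely those whose only platform gene symbol was 1 of the 10 names. Homer1 had 6 probe sets, Nr4a3 had 3, Egr2 had 2 and each of the other 7 genes had 1. All 18 were tested, with no filter on low values. The groups were 5 TPlp+AxL mice, which received T cells specific for proteolipid protein (Plp, a major protein of myelin) by adoptive transfer and then an axonal lesion, and 5 AxL mice with the axonal lesion alone. All 10 were adult female SJL/J mice, obtained at 8 to 10 weeks of age, and whole hippocampi were taken 2 days after the lesion. The lesion was thus shared by both groups, and unlesioned mice were not analysed here. The comparison of the groups addresses what transferred myelin-reactive T cells add to the hippocampal response to the lesion.

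Immediate early genes are transcribed within minutes of a stimulus, without the need for new protein synthesis. In hippocampal neurons, synaptic activity raises calcium and activates kinases that act on the transcription factors CREB, SRF with its partners, and MEF2, which sit at the promoters and enhancers of these genes. Fos, Fosb and Junb encode subunits of the AP-1 transcription factor, Egr1 and Egr2 zinc finger factors, Npas4 a neuronal bHLH-PAS factor, and Nr4a1 and Nr4a3 orphan nuclear receptors. Arc acts at the synapse on the endocytosis of AMPA receptors, and Homer1 encodes postsynaptic scaffolds together with a short, activity-induced form that competes with them. Their transcripts are short-lived and reflect the recent history of the animal, and glia and leukocytes can express several of them, among them Fos, Junb, Egr1, Egr2 and Nr4a1.

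None of the 18 probe sets passed the limma threshold of 0.05 on the adjusted p in either direction, where 0.835% of all probe sets passed, 0.646% higher and 0.189% lower in TPlp+AxL. Among all genes, each by its brightest probe set, 1.26% passed. In each of the 18 the values of the 2 groups overlapped, where 3.59% of all probe sets did not overlap (1.94% higher and 1.64% lower in TPlp+AxL). The result that stood out was between mice rather than between groups. A lesion-only mouse, AxL 4, had the highest value of all 10 mice in 9 of the 10 genes, counted by each gene's brightest probe set. Over all genes AxL 4 was the highest in 27.7%. Over the 18 member probe sets it was the highest in 10 and the lowest in 2, against 23.1% and 19.7% of all probe sets. After repeated quantile normalization AxL 4 was the highest in 6 of the 10 genes and in 8 of the 18 probe sets. Its share over all genes or probe sets after that normalization was not computed.

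The table of promoters used here held 8 of the 10 genes, all but Arc and Egr1. The sequences below are the 250 bases before the annotated start of 4 of them (GRCm38.p6), shown because these are the genes with a promoter at hand in which AxL 4 stood farthest above the other lesion-only mice. Capitals mark TGACG, the core of the cyclic AMP response element that CREB binds, or its reverse complement CGTCA.
Fos (chr12:85473640-85473889, + strand): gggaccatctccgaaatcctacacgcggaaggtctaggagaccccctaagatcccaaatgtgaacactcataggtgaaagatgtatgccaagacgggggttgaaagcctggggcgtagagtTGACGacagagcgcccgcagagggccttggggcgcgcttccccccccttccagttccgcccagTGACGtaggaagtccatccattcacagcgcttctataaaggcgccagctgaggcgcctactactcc
Fosb (chr7:19310046-19310295, - strand): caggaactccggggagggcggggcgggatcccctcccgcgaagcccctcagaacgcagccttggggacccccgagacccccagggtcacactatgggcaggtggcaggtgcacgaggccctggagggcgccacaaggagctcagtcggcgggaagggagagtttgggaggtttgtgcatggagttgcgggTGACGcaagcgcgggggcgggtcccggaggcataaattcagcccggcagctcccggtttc
Junb (chr8:84978749-84978998, - strand): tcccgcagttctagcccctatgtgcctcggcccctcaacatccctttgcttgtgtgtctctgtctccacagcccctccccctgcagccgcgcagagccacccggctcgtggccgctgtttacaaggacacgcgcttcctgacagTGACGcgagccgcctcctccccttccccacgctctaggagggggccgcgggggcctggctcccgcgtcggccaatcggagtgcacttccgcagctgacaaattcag
Homer1 (chr13:93303507-93303756, + strand): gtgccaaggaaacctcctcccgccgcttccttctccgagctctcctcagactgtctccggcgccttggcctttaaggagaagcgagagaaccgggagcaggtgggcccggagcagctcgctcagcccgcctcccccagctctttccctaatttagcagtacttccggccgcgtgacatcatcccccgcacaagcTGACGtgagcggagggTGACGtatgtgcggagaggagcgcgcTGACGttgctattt
The core was found on either strand in the 250 bases before at least 1 annotated start of all 8 genes, and in 19.8% of the 27025 genes in the table. Counted by start, 10 of the 13 windows of the 8 genes held it, against 17.8% of all 32851 windows. The full palindrome TGACGTCA, which contains the core, was in 0 of the 8 genes and in 1.77% of all genes. The CArG box, which SRF binds, was in the windows of Egr2 and of no other of the 8 genes, and in 1.62% of all genes. An EGR site, GCGGGGGCG, was in those of Fosb and Nr4a1 and in 2.93% of all genes, and an AP-1 site, TGANTCA, in none of the 8 and in 7.82% of all genes. The base composition of the windows was not matched, and a match describes letters, not binding. Sites outside the 250 bases, and the promoters of Arc and Egr1, were not searched. The lack of a match therefore does not show that a gene lacks the site.

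The deposited values had median log2 levels from 7.90 to 7.92 in TPlp+AxL and from 7.88 to 7.90 in AxL. They were already normalized between arrays, so like medians do not describe the signal before that step. The 99th percentile of log2 signal ran from 12.73 to 12.95 in TPlp+AxL and from 12.88 to 13.04 in AxL. AxL 4 stood apart from the rest. Its highest correlation with any other array was 0.993, where the other 9 arrays had 0.996 to 0.998, and its weight by limma's array weights was 0.360, the lowest of the 10. It was the highest array in 23.1% and the lowest in 19.7% of all probe sets. The comparisons of the members between groups are therefore given with and without AxL 4. The tissue label was met by its markers: the 12 mature neuron markers had a median log2 level of 12.63 and the 10 markers of dentate granule cells and hippocampal subfields 10.06. Choroid plexus markers averaged 9.52 in TPlp+AxL 1, 10.30 in AxL 3 and 9.43 in AxL 5, against 8.18 to 8.29 in the other 7 mice. Of the other markers Nnat, Ptprb and Sox17 fell in the fit of all 10 mice, where 0.280% of all genes fell. Each had a limma adjusted p above 0.05 in most of the fits with a mouse left out. The other probe sets of Ptprb had changes of -0.31 and 0.02 (limma adjusted p = 0.0971 and 0.859), and that of Sox17 had -0.02 (0.836). Nnat also lost its call after quantile and cyclic loess normalization (limma adjusted p = 0.139 and 0.136), and Ptprb and Sox17 with the replicate number as a block (0.0592 and 0.0594). Without AxL 4 Nnat (0.0777) and Ptprb (0.0571) did not pass, and the neuronal marker Syp did (-0.28, limma adjusted p = 0.0188). In the fit of all mice 0 of those of mature neurons, microglia, astrocytes, oligodendrocytes and choroid plexus passed in limma (7, 1, 2, 4 and 0 at an unadjusted p under 0.05). With the 3 mice of high choroid plexus signal left out, 0 of the 18 member probe sets passed. The whole table then had 1 higher and 0 lower probe sets, with fewer mice in both groups.

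**Figure D1:**
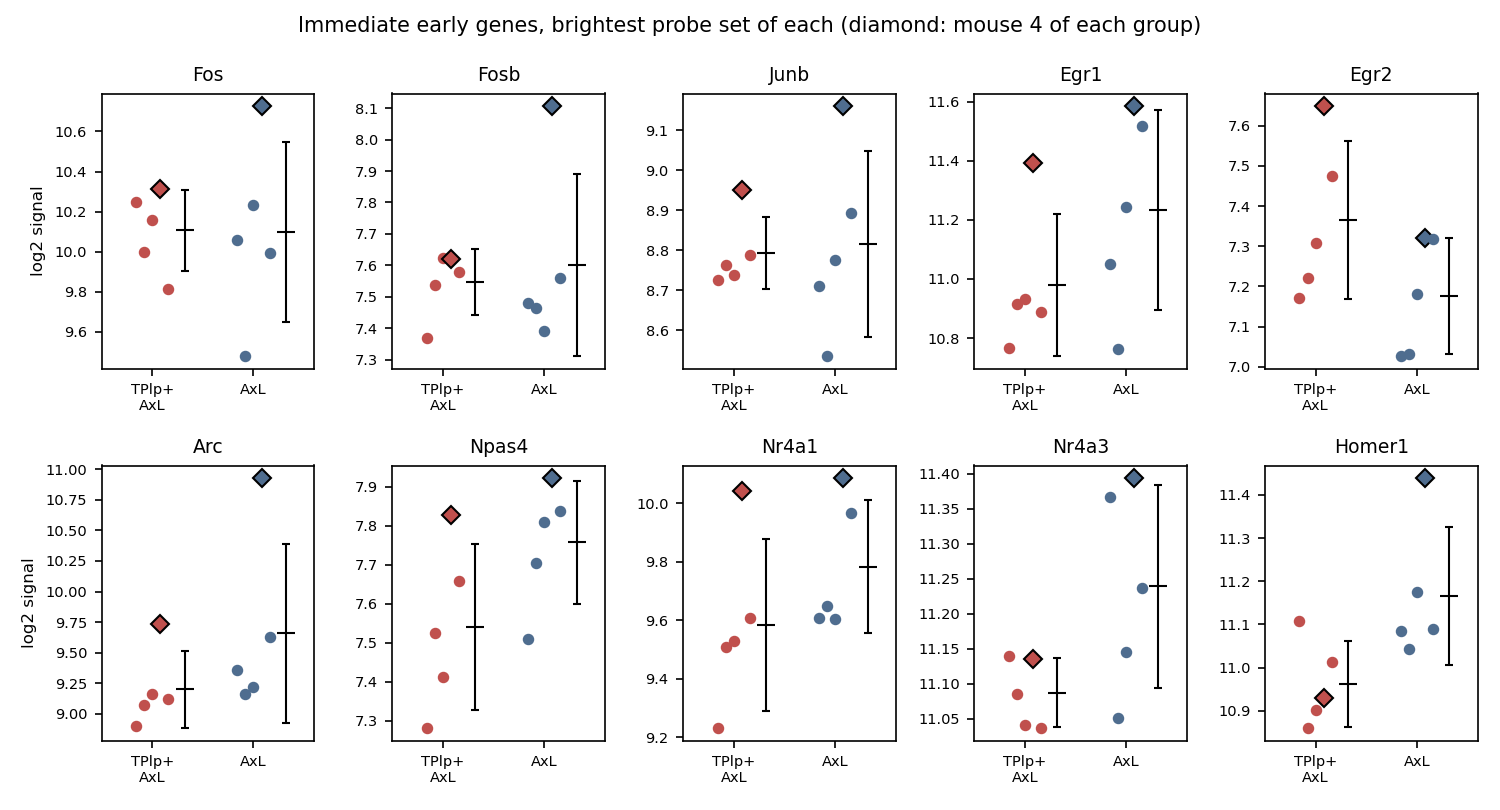
Log2 signal of each immediate early gene, by its brightest probe set, in the 5 TPlp+AxL mice (red, left) and the 5 AxL mice (blue, right), with the group mean ± SD in black and mouse 4 of each group as a diamond. AxL 4 is the highest of the 10 mice in 9 genes, and in Egr2 the highest is TPlp+AxL 4. Each panel has its own scale.

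Among the AP-1 subunits, none of the 3 passed the test. Fos had log2 values of 10.25, 10, 10.16, 10.31 and 9.81 in TPlp+AxL mice 1 to 5, against 10.06, 9.48, 10.23, 10.73 and 9.99 in AxL mice 1 to 5. AxL 4 was the highest and AxL 2 the lowest of all, with the 5 TPlp+AxL mice between them. The means were 10.11 ± 0.20 in TPlp+AxL and 10.10 ± 0.45 in AxL (SD, n = 5 each), a log2 change of 0.01 (SE 0.19, 95% interval -0.40 to 0.42, limma adjusted p = 0.989). Without AxL 4 the change of Fos was 0.16 (SE 0.14, limma adjusted p = 0.645), and without AxL 2 it was -0.15 (limma adjusted p = 0.616). Fosb, a paralogue of Fos, lay from 7.37 to 7.62 in TPlp+AxL with a median of 7.58, and in AxL it was 7.39 to 7.56 in 4 mice and 8.11 in AxL 4. Its log2 change was -0.05 (SE 0.12, limma adjusted p = 0.858), and 0.07 without AxL 4 (SE 0.06, limma adjusted p = 0.604). Junb, a dimer partner of the Fos proteins, had 8.73, 8.76, 8.74, 8.95 and 8.79 in TPlp+AxL, against 8.71, 8.54, 8.77, 9.16 and 8.89 in AxL. Both mice numbered 4 were the highest of their groups. The log2 change of Junb was -0.02 (SE 0.10, limma adjusted p = 0.931), and 0.06 without AxL 4 (SE 0.07, limma adjusted p = 0.729).

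The EGR factors differed in sign, and neither passed. Egr1, widely used as a marker of neuronal activity, had 10.77, 10.92, 10.93, 11.39 and 10.89 in TPlp+AxL, against 11.05, 10.76, 11.24, 11.58 and 11.52 in AxL. In TPlp+AxL mouse 4 lay well above the other 4 mice, and in AxL the values were spread over the whole range. The log2 change of Egr1 was -0.25 (SE 0.16, 95% interval -0.60 to 0.09, limma adjusted p = 0.478), and -0.16 without AxL 4 (SE 0.15, limma adjusted p = 0.667). Probe sets of like level, within 0.5 log2 of the mean of Egr1, had a median change of -0.11. Egr2, which also acts in myelinating glia and in leukocytes, was the only member whose brightest probe set was highest in a TPlp+AxL mouse. Its brighter probe set had 7.17, 7.22, 7.31, 7.65 and 7.48 in TPlp+AxL, against 7.03, 7.03, 7.18, 7.32 and 7.32 in AxL. The change was 0.19 (SE 0.10, 95% interval -0.02 to 0.40, limma adjusted p = 0.391). The dimmer Egr2 probe set gave a like value, 0.21 (SE 0.10, limma adjusted p = 0.355). Without AxL 4 the changes of the brighter and dimmer Egr2 probe sets were 0.23 and 0.24 (limma adjusted p = 0.352 and 0.337), and without TPlp+AxL 4, the highest mouse in both, they were 0.12 and 0.13 (limma adjusted p = 0.646 and 0.603). Both are dim, the brighter Egr2 probe set lying at the 28.5th percentile of signal among all probe sets and the dimmer at the 8.76th.

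Npas4, which neurons induce on calcium entry, had 7.28, 7.52, 7.41, 7.83 and 7.66 in TPlp+AxL, against 7.51, 7.71, 7.81, 7.92 and 7.84 in AxL. The lowest mouse was TPlp+AxL 1 and the highest AxL 4, with overlap in between. Its log2 change was -0.22 (SE 0.10, 95% interval -0.44 to 0.01, limma adjusted p = 0.364), and -0.18 without AxL 4 (SE 0.11, limma adjusted p = 0.491).

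Of the nuclear receptors, Nr4a1 had 9.23, 9.51, 9.53, 10.04 and 9.61 in TPlp+AxL, against 9.61, 9.65, 9.61, 10.09 and 9.97 in AxL. The mice numbered 4 were again the highest of both groups. The log2 change of Nr4a1 was -0.20 (SE 0.14, limma adjusted p = 0.530), -0.12 without AxL 4 (SE 0.14, limma adjusted p = 0.729), -0.11 without TPlp+AxL 1, the lowest mouse, and -0.31 without TPlp+AxL 4 (SE 0.12, limma adjusted p = 0.406). Nr4a3 gave values that differed in sign between its probe sets. The brightest, 1438796_at, had 11.09 ± 0.05 in TPlp+AxL and 11.24 ± 0.15 in AxL (SD, n = 5 each), a change of -0.15 (95% interval -0.29 to -0.01, limma adjusted p = 0.313). The dimmer 1421080_at and 1421079_at had changes of 0.08 (limma adjusted p = 0.445) and 0.09 (95% interval 0.01 to 0.18, limma adjusted p = 0.322). Without AxL 4 the 3 Nr4a3 values were -0.11, 0.04 and 0.08. AxL 4 had the highest value of the 10 mice in the brightest Nr4a3 probe set and the lowest in both of the others.

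Among the synaptic effectors, Arc had log2 values of 8.90, 9.07, 9.16, 9.73 and 9.13 in TPlp+AxL, against 9.36, 9.16, 9.22, 10.93 and 9.63 in AxL. AxL 4 exceeded the next highest mouse, TPlp+AxL 4, by 1.19 on the log2 scale, a 2.29-fold difference in signal. The means of Arc were 9.20 ± 0.31 in TPlp+AxL and 9.66 ± 0.73 in AxL (SD, n = 5 each), and the log2 change was -0.46 (SE 0.30, 95% interval -1.11 to 0.20, limma adjusted p = 0.497). Without AxL 4 it was -0.14 (SE 0.15, limma adjusted p = 0.719), and without both mice numbered 4 it was -0.27 (SE 0.10, limma adjusted p = 0.394).

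**Figure D2:**
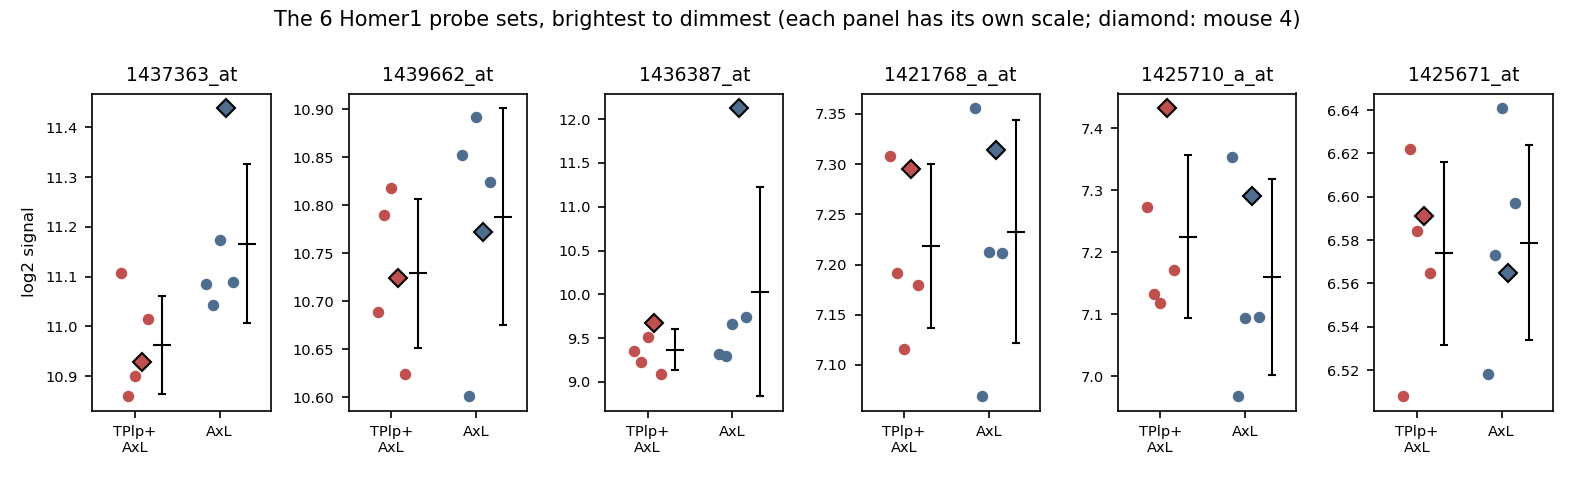
Log2 signal of the 6 Homer1 probe sets, brightest to dimmest from left to right, in the 5 TPlp+AxL mice (red, left) and the 5 AxL mice (blue, right), with group mean ± SD in black and mouse 4 as a diamond. Only in 1436387_at and 1437363_at is AxL 4 the highest mouse, at 12.13 in the first, where the other 9 mice lie between 9.09 and 9.74.

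Homer1 was read by 6 probe sets that did not behave alike. In 1436387_at the values were 9.35, 9.22, 9.51, 9.67 and 9.09 in TPlp+AxL, against 9.31, 9.29, 9.67, 12.13 and 9.74 in AxL. AxL 4 exceeded the next highest mouse by 2.39, or 5.23-fold, which was the largest such excess of AxL 4 among all 45037 probe sets. The log2 change of this Homer1 probe set was -0.66 (SE 0.46, 95% interval -1.66 to 0.34, limma adjusted p = 0.519), and -0.13 without AxL 4 (SE 0.13, limma adjusted p = 0.679). The brightest probe set, 1437363_at, had 11.11, 10.86, 10.90, 10.93 and 11.01 in TPlp+AxL, against 11.09, 11.04, 11.17, 11.44 and 11.09 in AxL. Of the members' brightest probe sets it had the smallest unadjusted p, with a change of -0.20 (SE 0.08, 95% interval -0.37 to -0.04, limma adjusted p = 0.262), and -0.14 without AxL 4 (limma adjusted p = 0.306). Its TPlp+AxL values overlapped those of AxL through TPlp+AxL 1 alone. The other 4 Homer1 probe sets had changes from -0.06 to 0.06 (from -0.06 to 0.10 without AxL 4), with AxL 4 inside the range of the other mice. The deposited files do not say which transcript form each Homer1 probe set reads, so the 6 were kept apart.

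**Figure D3:**
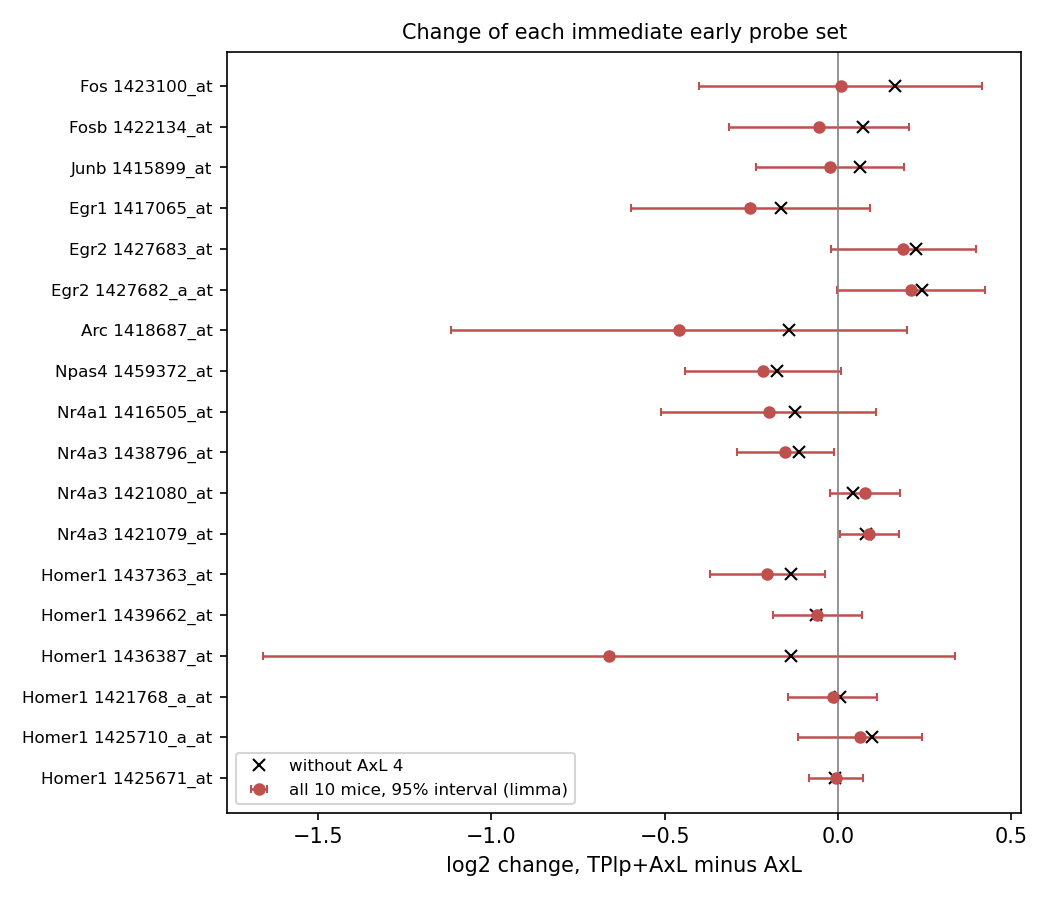
Log2 change of TPlp+AxL minus AxL for the 18 probe sets, with its 95% interval from limma over all 10 mice (red) and the value without AxL 4 (black cross). The widest intervals are those of Homer1 1436387_at and Arc, whose values without AxL 4 are -0.13 and -0.14.

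With 1 probe set per gene, the brightest, 8 of the 10 log2 changes were negative with a median of -0.18, where 62.7% of all 18193 genes were negative with a median of -0.03. Over all 18 probe sets 12 were negative with a median of -0.04, where 51.7% of all probe sets were negative. Without AxL 4, Fosb and Junb turned positive, so that 6 of the 10 genes were negative with a median of -0.12, where 62.2% of all genes were, and 9 of the 18 probe sets. Under every single mouse left out but AxL 4, 8 or 9 of the 10 were negative. After repeated quantile and cyclic loess normalization it was 7 of the 10 in both, against 58.6% and 55.8% of all genes. With array weights it was 6, against 63.0% of all genes, and with array medians subtracted 9, against 74.4%. The median change of the whole table was lower at higher signal, and probe sets of like level to the members had medians between -0.11 and 0.03. An unadjusted p under 0.05 in limma was found for 3 of the 18 (Homer1 1437363_at, Nr4a3 1438796_at and Nr4a3 1421079_at), where 14.3% of all probe sets had one. The first 2 were lower in TPlp+AxL, where 7.79% of all probe sets had such a p and were lower. Without AxL 4 it was again 3 of the 18, where 13.6% of all probe sets had one. With an adjusted p under 0.1 as the threshold 0 of the 18 passed, and the same count was found in every other setting tried.

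Most members varied more between mice of a group than other probe sets of their level. The SD within groups, pooled over both, was above the 90th percentile of probe sets of like level in 7 of the 10 genes: Fos, Fosb, Egr1, Egr2, Arc, Npas4 and Nr4a1. For Arc it was 0.56 against a median of 0.12 for its level, and for Fos 0.35 against 0.13. Without AxL 4 the count was 6 of 10, with Arc at 0.27 and the 96.0th percentile, while Fosb was at the 76.9th. In the TPlp+AxL mice alone it was also 6 of 10, led by Egr2 at the 98.8th percentile, Npas4 at the 98.4th and Arc at the 98.3rd. Nr4a3 and Homer1 were steadier by their brightest probe sets, at the 27.4th and 48.2nd percentile.

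**Figure D4:**
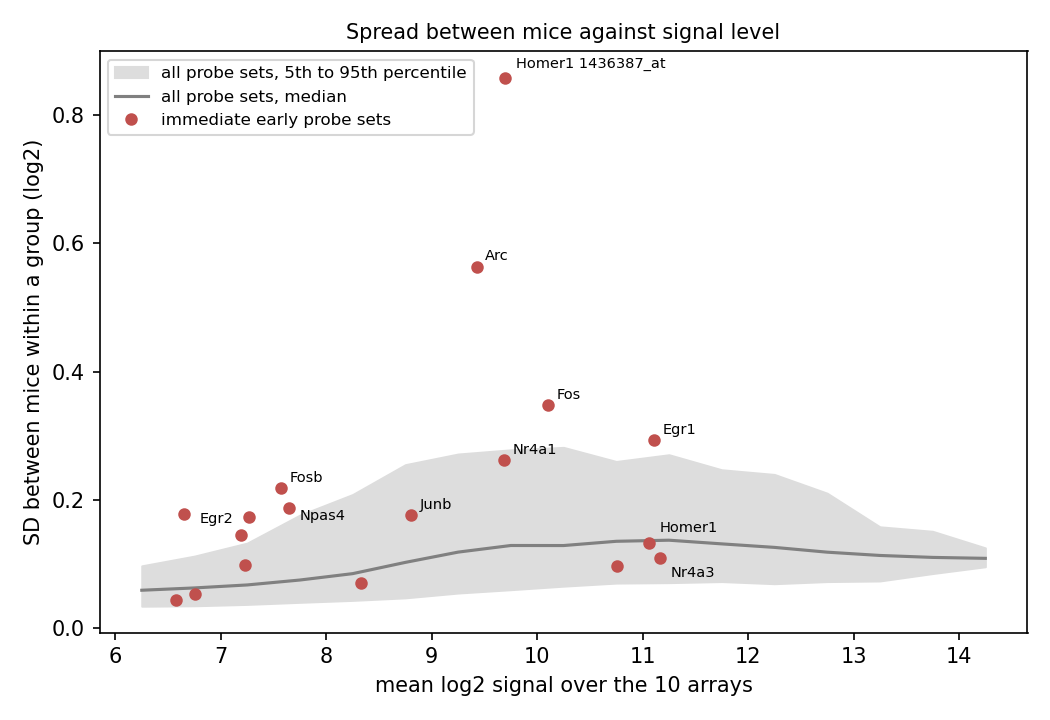
SD of log2 signal between mice within a group (pooled over TPlp+AxL and AxL) against mean log2 signal for the 18 immediate early probe sets (red). The grey band spans the 5th to the 95th percentile of all probe sets at each level and the line is their median. Homer1 1436387_at, with an SD of 0.86, and Arc, with 0.56, lie farthest above the band.

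Some mice were often the highest or the lowest of their group across members, which were measured on the same arrays. In TPlp+AxL, mouse 4 was the highest of its 5 in 7 of the 10 genes (Fos, Junb, Egr1, Egr2, Arc, Npas4 and Nr4a1), where it was the highest of its group in 10.7% of all genes. In AxL, mouse 4 was the highest of its 5 in all 10 genes, by the brightest probe sets, and in 33.2% of all genes, and mouse 2 was the lowest in 6, against 33.6% of all genes. TPlp+AxL 1 was the lowest of its group in 7 of the 10, against 20.8% of all genes, but the highest in Nr4a3 and Homer1. Deviations of Fos from its group means were correlated positively with those of all 9 other members over the 10 mice. The strongest was with Junb (Pearson r = 0.82, Spearman rho = 0.44, exact permutation p = 0.0373 and 0.248), and the lowest with Npas4 (r = 0.25, rho = 0.22, exact permutation p = 0.476 and 0.552). After adjustment over the 9 relations none passed, with the lowest adjusted p at 0.133 for r and 0.300 for rho (exact permutation within groups). With the 2 mice farthest from the median of Fos left out, AxL 2 and AxL 4, r ran from -0.33 (Fosb) to 0.26 (Egr1). Leaving them out also narrows the range of Fos, by which they were chosen. The lower r therefore cannot show whether the relations rest on those 2 mice. Without AxL 4 alone, r was 0.61 with Junb, 0.59 with Egr1 and with Nr4a3, 0.34 with Homer1, 0.33 with Arc and 0.22 with Egr2, and it was 0.09 or lower with Nr4a1, Npas4 and Fosb (-0.17). With 5 mice in each group, no r was computed within a group.

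The 10 other genes whose deviations were most like the mean of the members' standardized deviations were, from r = 0.97 to 0.91 over the 10 mice, Sgsm3, Cd93, Plk3, Zfp280b, Dusp6, Arhgap45, Gorasp1, Amotl1, Irf2bp2 and Supt6. Of these Plk3, a polo-like kinase, and Dusp6, a phosphatase that inactivates ERK, stand in the list of activity-regulated effectors. Dusp6 had 10.07 ± 0.19 in TPlp+AxL and 10.35 ± 0.38 in AxL (SD, n = 5 each). Without AxL 4 the r of the 10 genes ran from 0.78 (Irf2bp2) to 0.92 (Sgsm3). These values describe the profiles over the same arrays and were not tested.

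The wider programme of activity-regulated genes was read from 2 lists. Of 21 other immediate early transcription factors and nuclear proteins 1 rose, 0 fell and the median log2 change was -0.03, where 0.978% of all genes rose. The gene that rose was Ier3, a regulator of cell survival that NF-kappaB also induces, at 9.60 ± 0.13 in TPlp+AxL and 8.96 ± 0.18 in AxL (SD, n = 5 each). All 5 TPlp+AxL values of Ier3 lay above all 5 AxL values, with a log2 change of 0.64 (SE 0.09, limma adjusted p = 0.00606). Of 24 measured effector and delayed genes 1 rose, 0 fell and the median was -0.17. It was Pim1, a kinase induced by cytokine receptors through STAT factors, at 8.94 ± 0.13 in TPlp+AxL and 8.21 ± 0.28 in AxL (SD, n = 5 each), without overlap (log2 change 0.73, SE 0.12, limma adjusted p = 0.0161). The other Pim1 probe set had 0.11 (limma adjusted p = 0.182). The call of Pim1 was lost without AxL 5 (limma adjusted p = 0.0558), TPlp+AxL 3 (0.0504) or TPlp+AxL 4 (0.0601), and those of Ier3 (limma adjusted p = 0.127) and Pim1 (0.265) without the 3 mice with high choroid plexus signal. Beside these 2 genes, markers of leukocytes were higher in TPlp+AxL: 4 of 8 measured markers of T cells and leukocytes (Cd3g, Cd3d, Ptprc and Ms4a4b) and 5 of 7 of monocytes and neutrophils (Chil3, Plac8, S100a8, S100a9 and Lyz2) passed, and the summed linear signal of the second list ran from 8499 to 11583 in TPlp+AxL and from 3632 to 6069 in AxL. Dimmer probe sets of Ms4a4b and Ptprc, at mean log2 signals of 6.39 and 6.49, had changes of 0.01 and 0.12 (limma adjusted p = 0.936 and 0.295). With the replicate number as a block 3 and 2 markers of these lists passed, the losses being Cd3d (limma adjusted p = 0.107), S100a8 (0.0771), S100a9 (0.0752) and Lyz2 (0.0812). With each mouse left out in turn 3 to 4 and 2 to 5 passed, the 2 being without TPlp+AxL 4 and 3 monocyte and neutrophil markers being left without AxL 1. Without the 3 mice with high choroid plexus signal 0 and 1 (Chil3) passed. That fit had fewer mice in both groups, so a lost call cannot by itself show a smaller change. Its log2 changes were 0.72 for Ier3, 0.72 for Pim1, 0.88 for Cd3g, 0.68 for Cd3d, 0.77 for Ptprc and 1.64 for Ms4a4b. With all mice they were 0.64, 0.73, 0.87, 0.63, 0.78 and 1.67. Plac8 had 1.88, S100a8 0.98, S100a9 1.06 and Lyz2 1.09, against 1.92, 1.14, 1.18 and 0.90 with all mice. The part of these markers in the values of Ier3 and Pim1 was not tested.

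In AxL 4 these lists stood high together with the members. AxL 4 was the highest of the 10 mice in 13 of the 21 other factors and in 20 of the 24 effectors, against 27.7% of all genes. It was also the highest in 13 of the 20 upstream activators and in 3 of the 13 binding partners. The summed linear signal of the factors was 15085 to 16811 in the TPlp+AxL mice, against 27903 in AxL 4 and 14590 to 17290 in the other AxL mice. For the effectors it was 28556 to 31799 in TPlp+AxL, against 46426 in AxL 4 and 28361 to 32833 in the other AxL mice. Among the 29 probe sets in which AxL 4 exceeded every other mouse by over 1 on the log2 scale, singled out after their values were seen, were Klf10 (by 1.81), Gadd45b (1.44), Ier5 (1.43), Fosl2 (1.38), Nptx2 (1.29), Inhba (1.25) and Egr3 (1.13), besides Homer1 and Arc. Sox11, a factor of immature neurons, was among them with 4 probe sets, the largest excess being 1.73. In the other 9 mice the number of such probe sets ran from 0 to 19. Among the cell markers AxL 4 was the highest mouse in 6 of 12 of mature neurons, 5 of 10 of dentate granule cells and subfields, 5 of 8 of endothelium and 0 of 8 of choroid plexus. For microglia and astrocytes it was 2 of 6 in each. For T cells and leukocytes it was 1 of 8, for monocytes and neutrophils 1 of 7 and for oligodendrocytes 1 of 5. The list mean of mature neurons was 11.94 to 12.18 in TPlp+AxL, against 12.38 in AxL 4 and 12.19 to 12.22 in the other AxL mice. AxL 4 also had the highest list mean for astrocytes (12.25), microglia (10.07), endothelium (8.59) and dentate granule cells and subfields (10.26). The next highest mice had 12.16, 10.01, 8.56 and 10.25. Its means for leukocytes of both lists, oligodendrocytes and choroid plexus were not the highest. The part of these markers in the high values of AxL 4 was not tested. In whole tissue, fewer cells of a type and less RNA per cell cannot be told apart.

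**Figure D5:**
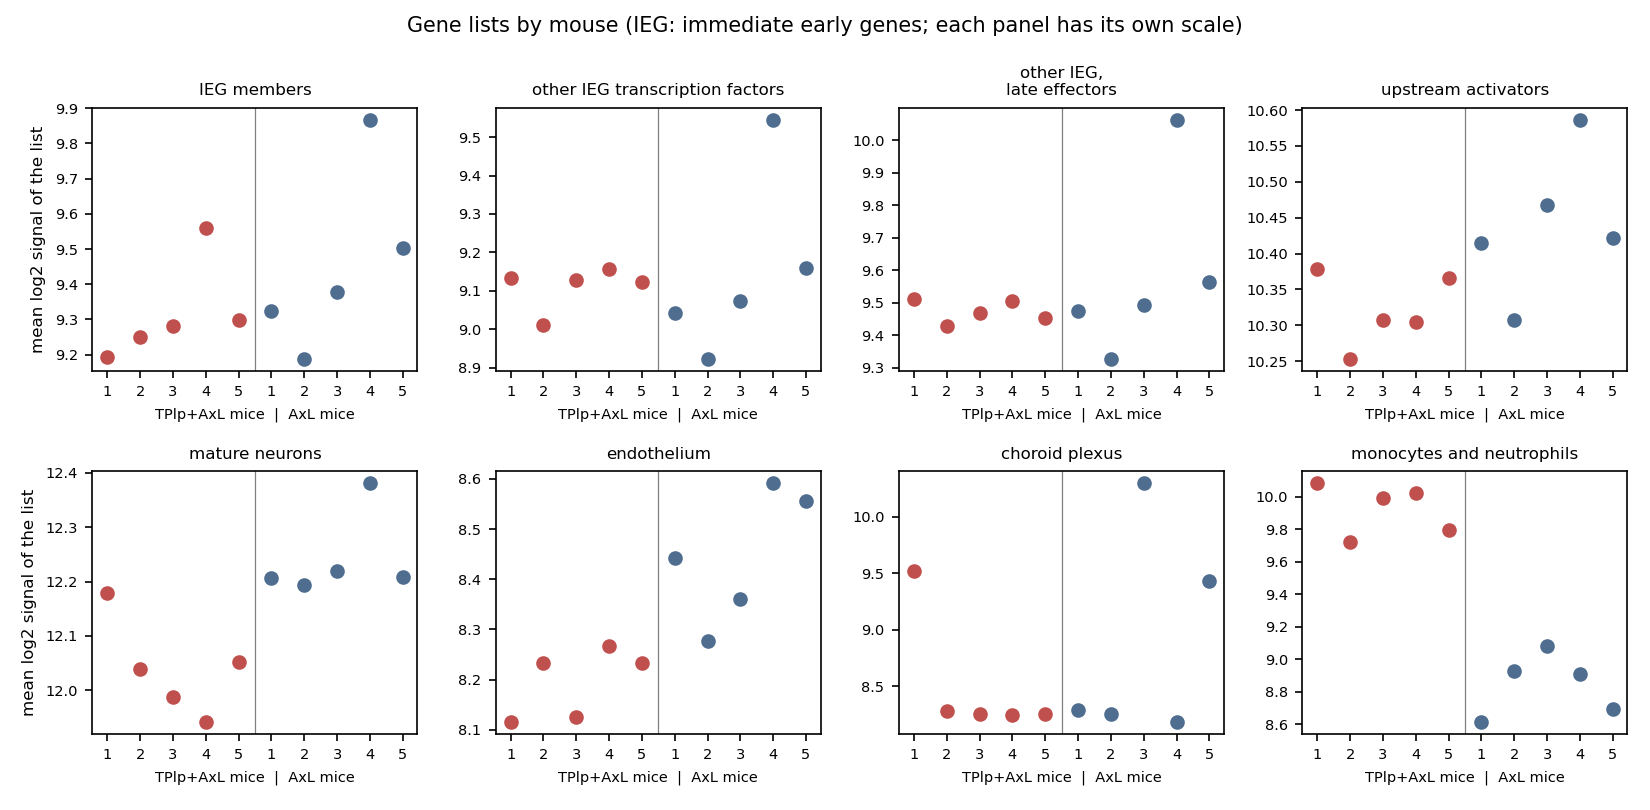
Mean log2 signal of 8 gene lists in each mouse, TPlp+AxL (red, left) and AxL (blue, right), each panel with its own scale. AxL 4 lies at 9.87 for the members, with all others at or below 9.56, and it is not high in the choroid plexus list, where TPlp+AxL 1, AxL 3 and AxL 5 are.

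Upstream activators, among them SRF, CREB and MEF2 family members, had 0 of 20 measured genes past the threshold in limma and a median change of -0.13, with 17 negative and 7 at an unadjusted p under 0.05, where 62.7% of all genes were negative and 17.9% had such a p. The smallest p values were those of Mrtfb, a coactivator of SRF (-0.23, SE 0.05, limma adjusted p = 0.0896), and Srf itself (-0.21, SE 0.05, limma adjusted p = 0.115). Both passed without AxL 2 (limma adjusted p = 0.0321 and 0.0301) and with array weights (0.0297 and 0.0395), and Mrtfb also without TPlp+AxL 1 (0.0474). The other probe sets had positive changes, 0.15 and 0.16 for Mrtfb and 0.03 for Srf. Crtc1, a coactivator of CREB named here because its groups did not overlap, had a change of -0.26 (SE 0.08, limma adjusted p = 0.169). The mature neuron markers had a median of -0.17 beside these values, with 12 of 12 negative.

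Of 13 measured binding partners of the members, 0 rose and 1 fell, where 0.280% of all genes fell, and the median was -0.04. Shank3, a postsynaptic scaffold that binds Homer proteins, had 10.84 ± 0.08 in TPlp+AxL and 11.17 ± 0.09 in AxL (SD, n = 5 each), a log2 change of -0.33 (SE 0.05, limma adjusted p = 0.0130), without overlap. The call of Shank3 was lost after repeated quantile normalization (-0.23, limma adjusted p = 0.0717) and cyclic loess normalization (-0.23, limma adjusted p = 0.0613), and without both mice numbered 4 (-0.32, limma adjusted p = 0.0650) or the 3 mice with high choroid plexus signal (-0.30, limma adjusted p = 0.262). Homer3, a relative of Homer1 (-0.14, limma adjusted p = 0.185), and Nab2, a corepressor of EGR factors (-0.21, limma adjusted p = 0.400), did not overlap between the groups and did not pass.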

How the data were processed

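Total RNA of whole hippocampi from 10 mice was hybridised to Affymetrix mouse expression arrays, 1 array per mouse. The authors deposited log2 values made with RMA, which corrects background, normalizes between arrays and summarises the probes of a probe set, per the submitters' processing notes. The sources used here name no software or version for it. The table held 45101 probe sets, with 0 missing values and 0 identical arrays. The 64 control probe sets were left out.

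Members were the 18 probe sets whose only symbol in the platform annotation was 1 of the 10 genes. Symbols of other genes were updated through Entrez identifiers with RefSeq's GRCm38.p6 gene table. Of 34945 probe sets carrying a single symbol 34741 were matched, while 932 carried several genes and 9160 were unnamed. For counts over genes, the brightest probe set on average stood for the gene. Of 171 entries in the gene lists, 158 were measured. The members and gene lists were chosen with earlier results of these data known.

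The comparison of TPlp+AxL with AxL used limma 3.58.1 in R 4.3.3 (lmFit, then eBayes without a trend). Tests were two-sided, and p-values of all 45037 probe sets were adjusted together (Benjamini-Hochberg), 0.05 being the threshold. A positive log2 change means a higher mean in TPlp+AxL. Relations between Fos and the other members used deviations from the group means and exact permutations of the mice within groups. The scripts were tested on simulated data. Named genes were all members, the 10 other genes whose profile was most like the members' mean, and from each list the genes past the threshold, or the 2 with the smallest p.

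The alternatives included robust estimation with a variance trend, removal of the dimmest 33.3% of probe sets, other normalizations, array weights, a block for the replicate number, each array left out in turn, probe sets with shared sequence left out, 1 probe set per gene, and an adjusted p under 0.1. After the data were seen, both mice numbered 4 were left out together, and likewise the 3 mice with high choroid plexus signal. Replicate numbers are shared between the groups without a stated pairing. The limma p-values set the difference between group means against the spread between these mice within groups, moderated over all probe sets. Promoter sequences came from RefSeq (GRCm38.p6), and protein sequences were not used here.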

Additional observations from a re-analysis of the deposited data

Results flagged for a closer look

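In 5 of the 36 sets of 5 mice (18 probe sets in 2 groups), 1 mouse lay far from the other 4 of its group by Dixon's criterion. For independent, normally distributed values chance meets it in about 1 set in 20. The 36 sets come from the same mice and are not independent, and the rate over all probe sets was not computed. The count therefore cannot show an excess. In TPlp+AxL the mouse was number 4 in both cases. Junb was 8.95 in TPlp+AxL 4, with the next mouse at 8.79, and Egr1 was 11.39, with the next at 10.93. In AxL it was again number 4 in each case. Arc was 10.93 in AxL 4 with the next mouse at 9.63, Fosb was 8.11 with the next at 7.56, and Homer1 1436387_at was 12.13 with the next at 9.74. The mice of both groups share the number 4 only as a label, and whether they were handled together is not given in the sources used here.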

How the results depend on the processing

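For the members, the number of probe sets past the threshold was 0 higher and 0 lower under every alternative. The sources used here state no pairing by replicate number. Same-numbered mice had deviations correlated from -0.22 (the mice numbered 4) to 0.36 (those numbered 2), and 2 of 10 mice correlated best with their own number. With so few pairs, these values cannot show whether same-numbered mice were handled together. With the number as a replicate block the members stayed at 0, Egr2 having the smallest adjusted p (0.153). The whole table had 203 higher and 38 lower probe sets, against 291 and 85 without it. Before adjustment, 9 of the 18 members fell below 0.05 in limma with this block, where 13.7% of the whole table did. Without the block it was 3 of the 18, where 14.3% of the whole table did. The lower calls of the whole table were 210 with array medians subtracted and 43 after cyclic loess. There were 465 higher and 288 lower calls with array weights, 490 and 267 at an adjusted p under 0.1, 136 and 31 without both mice numbered 4, and 1 and 0 without the 3 mice with high choroid plexus signal. With each array left out in turn they ran from 159 to 387 higher and from 26 to 187 lower. Calls in the 4 lists of activity-regulated and partner genes moved by 1 or 2 genes: the upstream activators had 2 lower with array weights, 1 at the looser threshold and 0 to 2 with an array left out, and the effectors 0 to 1 higher. The binding partners had 0 lower after quantile or cyclic loess normalization and without both mice numbered 4, and these 4 lists had 0 calls without the 3 choroid plexus mice. Calls among the markers of leukocytes, endothelium and subfields moved more, as given with them. AxL 4 was the highest mouse in 9 of 10 genes with array medians subtracted, and in 6 after repeated quantile normalization, all but Egr1, Egr2, Nr4a1 and Nr4a3. The shares of all genes in these settings were not computed. The sign of Fos, Fosb, Junb and 3 Homer1 probe sets turned under some settings, each time without a call. The causes were not tested. With 5 arrays in each group, precision is limited throughout.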
